A study of Mus musculus with 6 samples.

Results

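The insulin-like growth factor (IGF) axis was followed through 10 of its genes in molar mesenchyme of mice built to lose the BMP receptor gene Bmpr1a in Gli1-expressing cells. These are the proteases Pappa2 and Pappa, the ligands Igf1 and Igf2, the receptor Igf1r and the binding proteins Igfbp2 to Igfbp6. They were taken by symbol from a table of 25899 genes, and all 10 were found and passed the filter on low values, as did 14444 genes in all. That filter kept genes averaging 1 RPM or more, where RPM is the reads of a gene scaled to library size. Pappa2 was chosen by its measured genotype difference, because it had the smallest p-value of mutant against control in these same libraries, so its genotype difference is described here without a test. The gene next in that ranking was Col6a3, at a log2 change of -0.73 against -1.53 for Pappa2.

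RNA came from the apical part of the dental mesenchyme of mandibular first molars at postnatal day 7.5, when roots begin to form. The 3 mutant libraries were Gli1-CreER;Bmpr1afl/fl and the 3 control libraries were Bmpr1afl/fl littermates without the driver, all on a mixed C57Bl6/129S6/SvEvTac background. Floxed Bmpr1a alleles were therefore shared by both groups. CreER is a recombinase that needs tamoxifen to act and is made here where Gli1 is expressed. The labels used here name dental pulp as the source, give no tamoxifen schedule for either group and do not say how many animals a library holds, so p-values measure only the spread between these libraries. Control 3 and mutant 3 came from litter 2, and the other 4 libraries from litter 1. Where a level is given for every library, controls 1, 2 and 3 come first and mutants 1, 2 and 3 second, in that order.

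IGF1 and IGF2 signal through the receptor IGF1R to the PI3K and AKT kinases and promote growth and differentiation in bone and teeth. In tissue most IGF is held by IGF binding proteins, which keep it from the receptor and can also store it in the matrix. The metalloproteases PAPP-A and PAPP-A2 free it by cutting binding proteins: PAPP-A2 acts on those encoded by Igfbp3 and Igfbp5, and PAPP-A mainly on the one encoded by Igfbp4. The secreted stanniocalcins STC1 and STC2 inhibit both proteases.

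Both proteases belong to the metzincin family, and the stretch of coding sequence that encodes their zinc-binding site shows how near the 2 genes are at the active centre. The lines below run 5′ to 3′ on the coding strand, with capitals where Pappa2 and Pappa differ.
Pappa2: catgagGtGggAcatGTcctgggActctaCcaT
Pappa: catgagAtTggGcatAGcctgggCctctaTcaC
Of the 33 bases, 25 were identical and 8 differed, and 2 of the encoded residues differed. In mm10 (GRCm38, GENCODE M21) the Pappa2 stretch lies at chr1:158857336-158857368 on the minus strand and that of Pappa at chr4:65180920-65180952 on the plus strand, each within 1 coding exon. The genes span chr1:158711727-158980490 and chr4:65124174-65357509. The span of 1600012P17Rik overlaps that of Pappa2 on the same strand, and it had no reads in any library.

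The binding proteins share a cysteine-rich signature near their start. A search of the longest coding sequence of each of the 5 binding protein members found it once in 4 of them, shown here with capitals at the 15 of 24 bases common to those 4.
Igfbp2: GGCTGcGGcTGcTGCtccgtgTGC
Igfbp3: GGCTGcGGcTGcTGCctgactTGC
Igfbp4: GGCTGcGGtTGtTGCgccactTGC
Igfbp5: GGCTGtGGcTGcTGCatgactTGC
These stretches lie in single coding exons at chr1:72824778-72824801 (plus strand), chr11:7213566-7213589 (minus), chr11:99041650-99041673 (plus) and chr1:72873966-72873989 (minus). Igfbp6 held no exact match to the pattern searched. Igfbp2 and Igfbp5 are neighbours on chromosome 1, pointing towards each other with 5457 bp between their annotated ends.

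The libraries held between 15916045 and 20609420 reads on genes, recovered from the steps of the deposited values. All 11 dental mesenchyme markers examined reached a mean of 1 RPM, and their sum ran from 2400.3 to 3788.9 RPM. Enamel epithelium was present as well, though the dissection was of mesenchyme: 12 of 12 markers reached 1 RPM, and their sum was 5471.2, 2383.9 and 39808.8 RPM in the controls and 49857.1, 5741.3 and 21904.1 RPM in the mutants. Odontoblast markers summed to between 541.6 and 8286.3 RPM. Both sums overlapped between genotypes. Bmpr1a, the floxed gene, stood at 121.0, 139 and 149.5 RPM in the controls. In the mutants it stood at 108, 120.2 and 111 RPM, so the groups nearly met but did not overlap. Its log2 change was -0.27 (SE 0.14; limma with Benjamini-Hochberg, adjusted p 1.00). Reads from exons outside the floxed part, and from cells without Cre, are included. Gli1, whose locus the driver occupies in mutants, measured 34.9, 30.4 and 63.7 RPM in the controls. In the mutants it measured 28.7, 19.8 and 26.6 RPM, also without overlap, a log2 difference of -0.70 (SE 0.29; limma with Benjamini-Hochberg, adjusted p 1.00). Groups did not overlap for 2.64% of all genes tested, 1.67% being lower in mutants.

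Pappa2 was found at 18.4, 15.7 and 25.1 RPM in the controls and at 5.22, 6.72 and 6.33 RPM in the mutants. The groups lay far apart, with the highest mutant well below the lowest control. Its means were 19.7 ± 4.81 RPM for controls against 6.09 ± 0.776 RPM for mutants (± SD, n = 3 each, as for all group means that follow), 3.24-fold lower in mutants, from 147 to 710 reads per library. The difference on the log2(RPM + 1) scale, which understates changes of low genes, was -1.53 over all libraries (SE 0.21), -1.38 in litter 1 and -1.83 in litter 2, whose value rests on 1 library of each genotype. In bulk RNA, fewer cells making a transcript and less transcript per cell cannot be told apart. With the enamel epithelium level as a covariate the log2 difference was -1.61. That level, here and in later fits, is the mean log2(RPM + 1) of the 12 enamel markers, not their summed RPM.

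**Figure D1:**
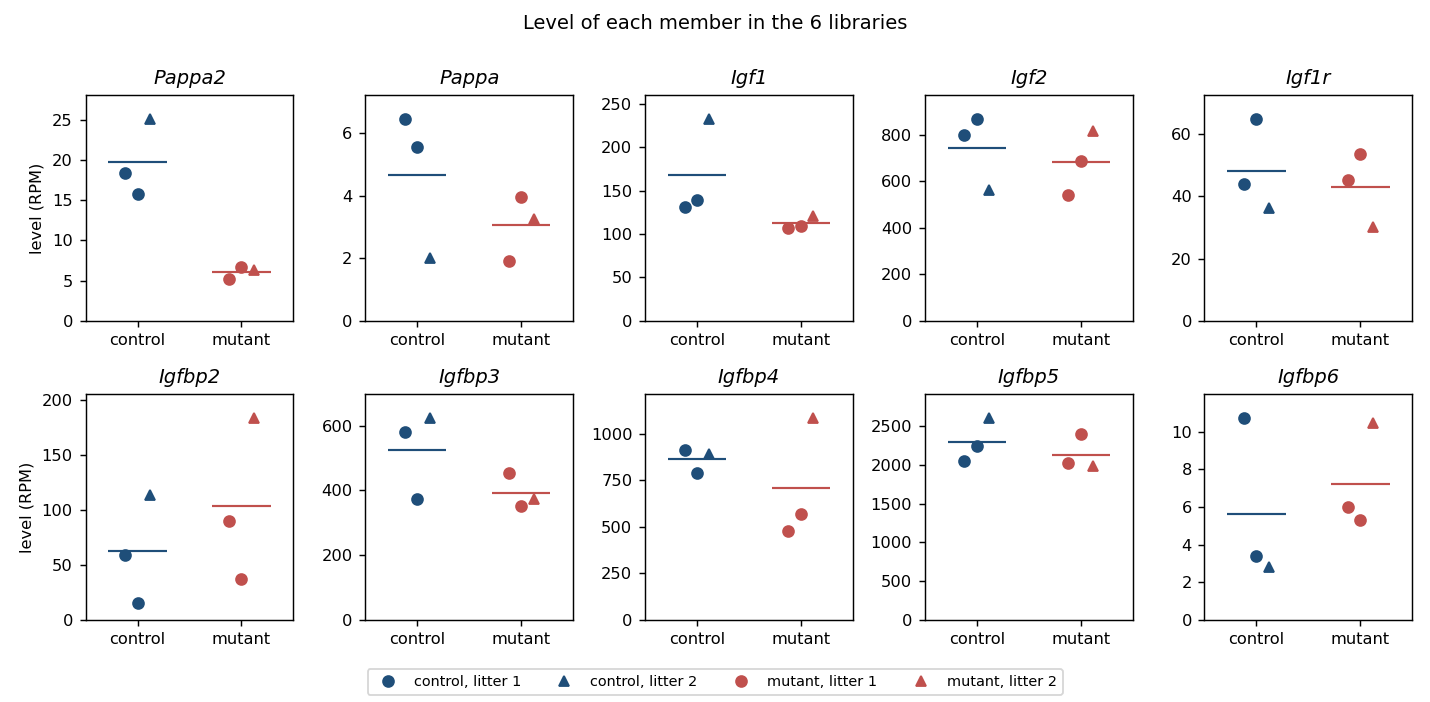
Level in RPM (linear axis from 0) of each of the 10 genes in the 3 control and 3 mutant libraries; circles are litter 1, triangles litter 2, and lines are group means. Only Pappa2 and Igf1 show control and mutant libraries that do not overlap, and for Igf1 control 3, at 232 RPM, stands well above the other controls.

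Pappa, the second protease, was the least abundant member, at 54 to 196 reads per library. It stood at 6.45, 5.56 and 2.01 RPM in the controls and at 1.92, 3.96 and 3.27 RPM in the mutants. Control 3 fell among the mutants, so the groups overlapped. The log2 difference was -0.42 (SE 0.39; limma with Benjamini-Hochberg, adjusted p 1.00), made of -0.88 within litter 1 and 0.50 within litter 2. It was -0.17 without control 1 and -0.82 without control 3 (limma, unadjusted p 0.0231). Per kb of exon, the level of Pappa2 over that of Pappa was 3.05, 3.03 and 13.3 in the controls and 2.92, 1.82 and 2.07 in the mutants. Control 3 thus combined the highest Pappa2 with the lowest control Pappa, while in litter 1 both proteases were lower in both mutants than in both controls.

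Igf1, the ligand made by mesenchymal cells under growth hormone and local control, had levels of 131, 139.6 and 232 RPM in the controls and 107, 109 and 121 RPM in the mutants. Every mutant lay below every control, but the gap between the nearest pair was small beside the spread of the controls. The group means were 168 ± 56.0 and 112 ± 7.61 RPM. The log2 difference of -0.53 (SE 0.23) had an unadjusted p of 0.0546 (limma; adjusted p 1.00 after Benjamini-Hochberg). With litter in the model the unadjusted p was 0.0142, and the adjusted p again 1.00. The log2 difference was -0.32 within litter 1 and -0.93 within litter 2, and without control 3 it was -0.27. Igf1 was the 1 gene of the 9 members other than Pappa2 whose groups did not overlap, and over all genes tested 2.64% did not, 1.67% being lower in mutants.

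Igf2, the ligand expressed from the paternal allele in most fetal and young tissues, stood at 800.4, 867 and 563 RPM in the controls and at 539, 689.7 and 819 RPM in the mutants. The groups overlapped almost fully, and the lowest and highest values of the 6 differed by 1.61-fold. The log2 difference was -0.12 (SE 0.27; limma with Benjamini-Hochberg, adjusted p 1.00). As for Pappa, the direction differed between litters, at -0.45 within litter 1 and 0.54 within litter 2. The level of Igf2 over that of Igf1, per kb of exon, was 4.20 in control 3 and between 8.74 and 11.7 in the other libraries. In GENCODE M21 the annotated span of Igf2 overlaps 3 other genes, and that of Igf1 overlaps an antisense gene. Whether the authors' counting used strand is not given in the sources used here.

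Because Igf1 and Pappa2 were the members without overlap between genotypes, their promoters are printed, from 250 bases before to 50 after the start site in RefSeq (GRCm38.p6). Capitals mark 3 short sequences that Smad proteins, the carriers of BMP and TGF-beta signals, are known to bind: the palindrome GGCGCC, the related element GGAGCC on either strand, and the Smad box CAGAC on either strand. The windows are chr1:158958126-158958425 on the minus strand for Pappa2 and chr10:87860861-87861160 on the plus strand for Igf1, and both start sites lie inside the gene spans of GENCODE M21.
Pappa2: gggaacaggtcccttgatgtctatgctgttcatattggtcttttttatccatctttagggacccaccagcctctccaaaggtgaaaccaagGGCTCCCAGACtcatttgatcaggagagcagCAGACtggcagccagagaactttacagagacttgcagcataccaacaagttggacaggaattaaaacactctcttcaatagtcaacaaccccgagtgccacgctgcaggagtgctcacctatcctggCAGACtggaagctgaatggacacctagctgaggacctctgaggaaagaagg
Igf1: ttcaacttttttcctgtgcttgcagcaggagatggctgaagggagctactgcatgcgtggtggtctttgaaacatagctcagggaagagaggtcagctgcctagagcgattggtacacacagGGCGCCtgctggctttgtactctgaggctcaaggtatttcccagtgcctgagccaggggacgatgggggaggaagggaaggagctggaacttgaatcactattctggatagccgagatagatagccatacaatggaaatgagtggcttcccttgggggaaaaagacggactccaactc
The Pappa2 window held GGAGCC (as GGCTCC) once, directly before the first of 3 copies of CAGAC, and no GGCGCC. Of 32851 promoter windows of the same length, 30.9% held GGAGCC and 49.6% held the Smad box, at least 1 copy on either strand. How many windows hold 3 copies of the box, or the elements side by side, was not counted. The Igf1 window held the palindrome once and neither of the others, and 11.9% of windows held at least 1 copy. Members whose genotypes overlap hold such elements too: GGAGCC occurs in windows of Igf1r, Igf2, Igfbp3, Igfbp4 and Igfbp5, and the Smad box in windows of Igf1r, Igf2, Igfbp2 and Igfbp6. A match of letters describes the window and does not show binding.

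Igf1r, the signalling receptor, measured 44.0, 64.8 and 36.1 RPM in the controls and 45.2, 53.6 and 30.2 RPM in the mutants. In each group litter 2 gave the lowest library. The genotype difference was -0.16 on the log2 scale (SE 0.28; limma with Benjamini-Hochberg, adjusted p 1.00), which is smaller than its SE.

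Igfbp5, the most abundant binding protein of the set and a target of PAPP-A2, varied least. It was found at 2050.4, 2252.5 and 2603.1 RPM in the controls and at 2024.6, 2396.8 and 1986.3 RPM in the mutants, a spread of 1.31-fold. The log2 difference was -0.11 (SE 0.34; limma with Benjamini-Hochberg, adjusted p 1.00). Igfbp3, the other known target of PAPP-A2 and the main IGF carrier of serum, had levels of 581, 372.5 and 623 RPM in the controls and 453, 352 and 372 RPM in the mutants. Its groups overlapped through control 2, with a log2 difference of -0.39 (SE 0.25; limma with Benjamini-Hochberg, adjusted p 1.00), -0.22 within litter 1 and -0.74 within litter 2. Without control 2 it was -0.62 (limma, unadjusted p 0.0398), and without control 3 it was -0.25.

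Igfbp4, the main target of PAPP-A, stood at 912, 788 and 892 RPM in the controls and at 476.5, 571 and 1083.2 RPM in the mutants. Mutants 1 and 2 were the lowest of the 6 libraries and mutant 3 the highest. The log2 difference of -0.37 (SE 0.34; limma with Benjamini-Hochberg, adjusted p 1.00) joined -0.70 in litter 1 to 0.28 in litter 2. It was -0.13 without mutant 1 and -0.72 without mutant 3 (limma, unadjusted p 0.0178). Pappa, Igf2 and Igfbp4 were the 3 of 10 members for which both litter 1 mutants lay below both litter 1 controls and the litter 2 mutant above its control. Cases of opposite direction of this kind, either way round, made up 18.2% of all genes tested. A test of whether the genotype difference differed between litters had an unadjusted p under 0.05 for 1 of the 9 members other than Pappa2, namely Pappa, and for 5.06% of all genes (limma; 0 after Benjamini-Hochberg adjustment).

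Igfbp2 varied most, 11.7-fold between its lowest and highest library. It measured 58.8, 15.7 and 114 RPM in the controls and 89.6, 37.0 and 183 RPM in the mutants. The genotype difference was 0.82 (SE 0.79; limma with Benjamini-Hochberg, adjusted p 1.00), 0.89 within litter 1 and 0.68 within litter 2. The 3 libraries with the most Igfbp2 (mutant 3, control 3 and mutant 1) were also the 3 with the highest sum of enamel epithelium markers given above. With the enamel level as a covariate, added after the data had been seen, the difference was 0.11, and leaving out 1 library gave 0.05 (without control 2) to 1.44 (without control 3). Igfbp6, a binding protein with preference for IGF2, was found at 10.7, 3.39 and 2.79 RPM in the controls and at 5.97, 5.29 and 10.4 RPM in the mutants, from 79 to 325 reads. Control 1 and mutant 3 stood apart from the other libraries, and these also had the highest sums of 6 dental follicle markers, 891 and 841 RPM against 331 to 428 RPM in the rest. Most of that sum was Postn, at 791 and 695 RPM in these libraries. Postn, Aspn and Pthlh were highest in these 2 libraries, while Scx, Tnmd and Tnn did not follow that order. The part of follicle tissue in the Igfbp6 levels was not tested. The log2 genotype difference of Igfbp6 was 0.45 (SE 0.46; limma with Benjamini-Hochberg, adjusted p 1.00), -0.11 within litter 1 and 1.59 within litter 2. It was 0.15 without control 3 and 0.96 without control 1 (limma, unadjusted p 0.0218).

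**Figure D2:**
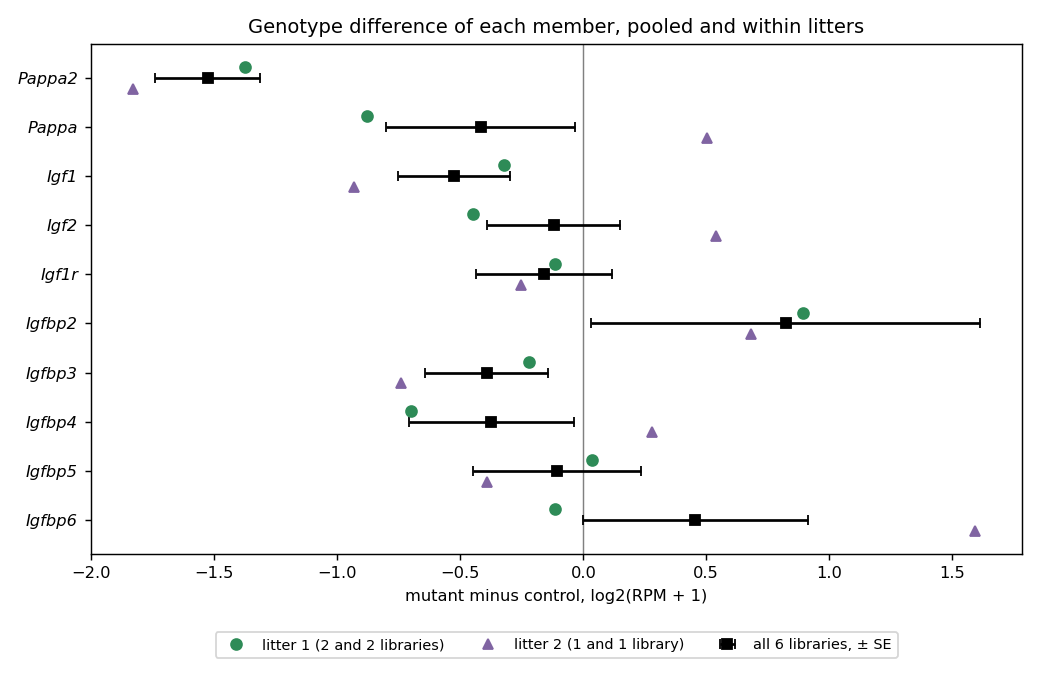
Genotype difference of each gene (mutants less controls, log2 of RPM + 1); squares with bars are the estimate over all 6 libraries ± SE, circles litter 1 and triangles litter 2, which has 1 library of each genotype. Pappa, Igf2, Igfbp4, Igfbp5 and Igfbp6 have their litter values on opposite sides of 0.

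Of the 9 members other than Pappa2, 0 had an adjusted p under 0.05 and 0 an unadjusted p under 0.05 (limma with Benjamini-Hochberg; with litter in the model 1 did, Igf1). Over all genes tested the shares were 0% and 1.05%, the latter being 152 genes, of which 0.692% of all tested were lower and 0.36% higher in mutants. The 9 had a median log2 difference of -0.16 and 7 had a lower mean log2 value in mutants, against a median of -0.01 and 54.4% over all genes.

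Levels of different genes were compared per kb of exon in GENCODE M21. The mean over the 6 libraries, in RPM per kb, was highest for Igfbp5 at 369.5, followed by Igfbp4 at 178, Igfbp3 at 147, Igf2 at 125, Igfbp2 at 44.9, Igf1 at 14.1, Igfbp6 at 5.78, Igf1r at 2.72, Pappa2 at 1.25 and Pappa at 0.350. In 2 places of this order neighbours did not overlap: Igfbp5, at 331 to 433, lay above every library of Igfbp4, and Igf1, at 10.8 to 23.4, above every library of Igfbp6. All other neighbours overlapped in range, among them Pappa2 (0.507 to 2.44) and Pappa (0.174 to 0.585). Compared within each library, Igf2 lay above Igfbp2 and Pappa2 above Pappa in all 6, while the other overlapping neighbours changed order between libraries. By coding length in place of exon length, Igf2 came second at 1244.4 and Igf1, whose exons are mostly noncoding, passed Igfbp2, while Igf1r (11.1) passed Igfbp6 (9.004).

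Summed per kb of exon, the 5 binding protein members were dominated by Igfbp5, which made up 41.2% to 60.0% of the total in every library. Igfbp4 made up 26.7%, 26.1% and 22.5% in the controls and 16.8%, 19.4% and 30.5% in the mutants. Igfbp2 went from 1.24% in control 2 to 12.3% in mutant 3. No share separated the genotypes.

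**Figure D3:**
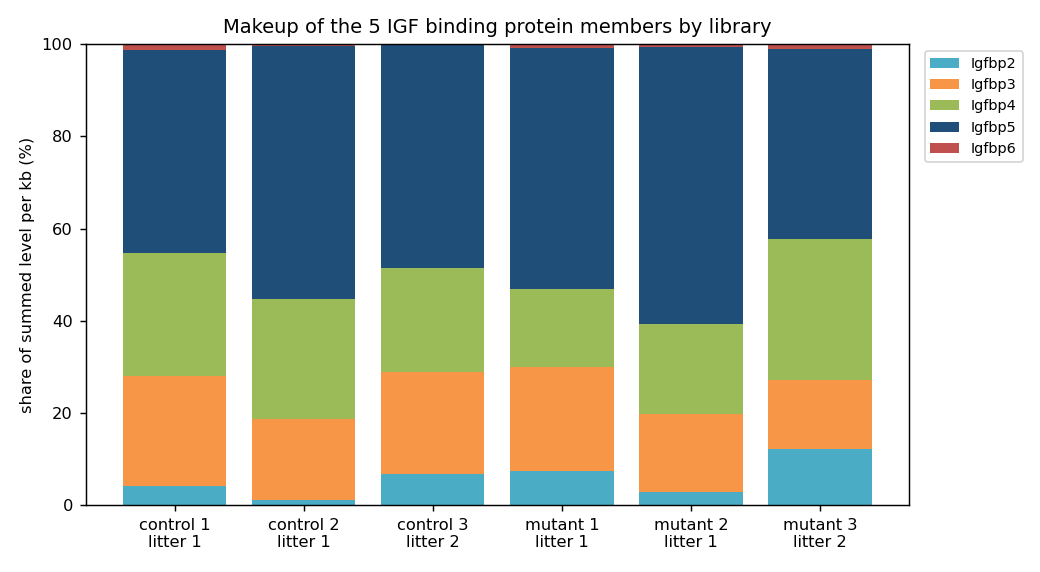
Share of each binding protein gene in the summed level per kb of exon (percent, stacked to 100) in each library. Igfbp5 is the largest share in all 6 libraries, and mutant 3 has the largest Igfbp2 share, 12.3%, and the largest Igfbp4 share, 30.5%.

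The difference between litters was tested with genotype in the model for the 9 members other than Pappa2. The fit that chose Pappa2 had no litter term, so its residual spread held the litter difference, and for Pappa2 that difference is given without a test. Litter 2 holds 1 control and 1 mutant, so litter, animal and dissection cannot be told apart. Igfbp2 was higher in litter 2 by 1.76 on the log2 scale (SE 0.55; limma p 0.0167, or 0.163 after Benjamini-Hochberg adjustment). Igf1r was lower, at -0.62 (SE 0.18; limma p 0.0131, or 0.153 after Benjamini-Hochberg adjustment). For these 2 genes both libraries of litter 2 lay outside the range of the 4 libraries of litter 1, as they did for 35.5% of all genes tested. Igf1 was higher by 0.47 (SE 0.17; limma p 0.0291, or 0.194 adjusted), though its litters overlapped and without control 3 the value was 0.16. Pappa2 differed by 0.31, with 0.08 without control 3 and 0.53 without mutant 3. In all, 3 of the 9 tested members had an unadjusted p under 0.05 and 0 an adjusted one. Over all genes the shares were 20.9% and 0.872%, so the members' count is near the background. Of the 3, 2 were higher and 1 lower in litter 2, against 7.21% and 13.7% of all genes. With the enamel level as a covariate the litter difference of Igfbp2 was 1.00 (limma p 0.0592), that of Igf1r -0.47 (limma p 0.0548) and that of Igf1 0.38 (limma p 0.0947). Igfbp2 also had a p above 0.05 without control 3 (limma p 0.0861) or mutant 3 (limma p 0.0592), Igf1r without mutant 3 (limma p 0.0898), and Igf1 without control 1, 2 or 3 (limma p 0.0766, 0.0746 and 0.407). Igfbp4 was higher in litter 2 by 0.56 (limma p 0.0879). Its p was under 0.05 with median-of-ratios scaling (limma p 0.0328), upper-quartile scaling (0.0437), the enamel covariate (0.0397) and without control 3 (1.05, limma p 0.0176), while without mutant 3 the difference was 0.07.

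The enamel sums did not separate the litters, since mutant 1 had the highest. Odontoblast marker sums did, at 1872.7 and 541.6 RPM in control 3 and mutant 3 against 5141.2 to 8286.3 RPM in litter 1. Most of the litter 1 sums was Dspp, at 4032.4 to 6871.9 RPM. Dspp, Nes and Phex were lower in both libraries of litter 2 than in all of litter 1, while Dmp1, Smpd3 and Sp7 were not. Dmp1 and Smpd3 were highest in control 3, at 88.7 and 458 RPM. Erythroid marker sums separated the litters as well, at 1416.8 and 428.3 RPM in litter 2 against 130.4 to 339.5 RPM. Their part in the litter differences was not tested.

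**Figure D4:**
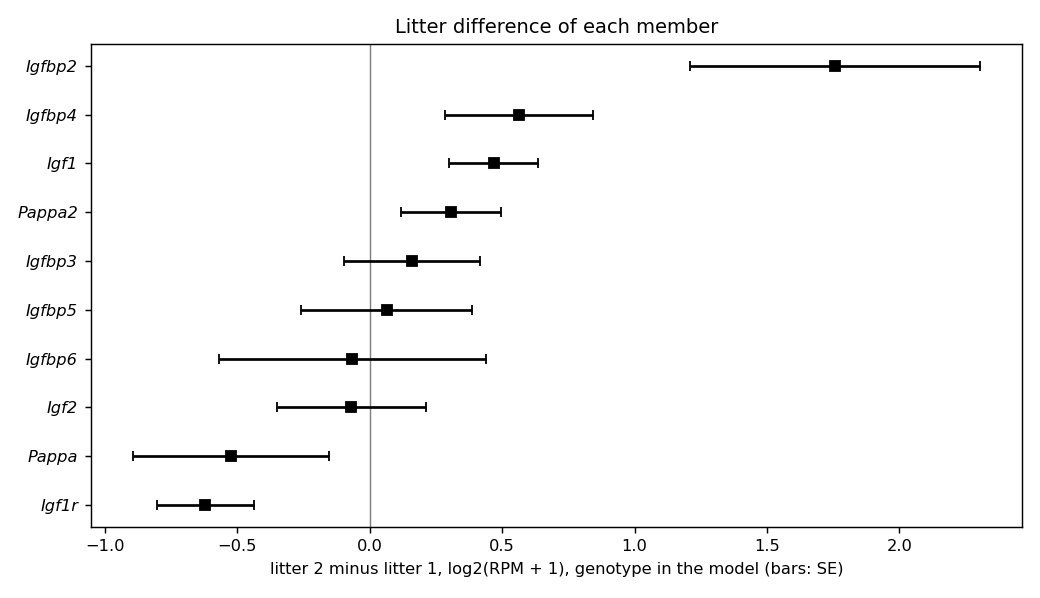
Litter 2 minus litter 1 on the log2(RPM + 1) scale for each gene, with genotype in the model; bars are the SE. Igfbp2 lies farthest above 0, at 1.76, and Igf1r farthest below, at -0.62.

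A list of 39 further genes of the pathway gave 35 with a mean of at least 1 RPM. Of these, 0 had an unadjusted p under 0.05 for genotype in either direction (limma; 0 also after Benjamini-Hochberg adjustment), against 1.05% of all genes. Their median log2 difference was 0.02, and 16 of the 35 had a lower mean log2 value in mutants. The stanniocalcins, inhibitors of PAPP-A and PAPP-A2, did not pass the genotype test. Stc2 had levels of 39.4, 86.9 and 7.03 RPM in the controls and 33.4, 77.1 and 18.5 RPM in the mutants, a log2 difference of 0.29 that took the opposite sign without control 3 (-0.67). Stc1 stood at 5.56, 5.88 and 3.28 RPM in the controls and at 4.05, 4.92 and 1.84 RPM in the mutants, a log2 difference of -0.39. In both genes the lowest libraries were those of litter 2.

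Among receptors outside the members, the insulin receptor gene Insr differed by -0.03, the IGF2 clearance receptor gene Igf2r by 0.02 and the growth hormone receptor gene Ghr by 0.02, on the log2 scale. These 3 averaged 32.5 ± 5.49, 56.9 ± 9.85 and 162 ± 92.6 RPM in controls and 32.2 ± 7.40, 57.6 ± 9.59 and 151 ± 53.5 RPM in mutants. For Ghr the difference of mean log2 values and that of mean RPM have opposite signs, as they do for Stc2. Igfbp7, a low-affinity IGF binder found in vessels, measured 224, 229 and 156 RPM in the controls and 127, 200.4 and 217 RPM in the mutants, a log2 difference of -0.18. Igfals, which encodes the liver-made subunit that holds IGF in serum complexes, stayed between 0.296 and 0.880 RPM, from 9 to 23 reads, and was not tested. Igfbp1 had 0 reads in every library, which allows up to 0.0987 to 0.126 RPM (3 reads).

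Between litters, 10 of these 35 genes had an unadjusted p under 0.05, of which 9 were lower and 1 higher in litter 2, against 20.9% of all genes. Stc2 (-2.15), Ghr (-1.01), Stc1 (-0.80) and Insr (-0.49) were among the lower ones, each with unadjusted p under 0.05 but adjusted p of at least 0.0994 (limma with Benjamini-Hochberg). Without control 3, Stc2 stood at -1.41 (limma p 0.0571) and Ghr at -0.55 (limma p 0.223). Without mutant 2, Ghr had a limma p of 0.0517, and without mutant 3 the limma p was 0.0556 for Stc1 and 0.0722 for Insr. The 1 gene to pass adjustment, as 0.872% of all genes did, was Grb14, an adaptor that binds the insulin receptor, named after its values were seen. It was found at 26.7, 34.3 and 11.2 RPM in the controls and at 34.3, 30.9 and 12.1 RPM in the mutants, a log2 litter difference of -1.36 (SE 0.15; limma with Benjamini-Hochberg, adjusted p 0.0337). In only 6 of 15 alternatives was its adjusted p again under 0.05. Over all 15 it ranged from 0.0124 to 0.171, and it was above 0.05 with no filter, median-of-ratios or upper-quartile scaling, voom or the enamel covariate, and without control 2, control 3, mutant 2 or mutant 3.

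Likeness to Pappa2 was measured as Pearson's r of log2(RPM + 1) over the 6 libraries, as a description. The 5 nearest of the tested genes were Gm7293 (0.98), the myelin gene Pmp22 (0.97), the homeobox gene Lhx8 (0.97), Gm16567 (0.96) and Eya4 (0.95), a transcriptional coactivator. In all 5, as in Pappa2, every mutant library was below every control. Lhx8, which marks dental mesenchyme, had levels of 19.3, 19.5 and 22.6 RPM in the controls and 13.4, 14.6 and 16.0 RPM in the mutants. It is 1 of 2 among the 11 dental mesenchyme markers whose genotypes did not overlap, the other being Twist1, and the summed level of the 11 overlapped. For Twist1 the groups nearly met, at 60.06 RPM in control 3 and 60.01 RPM in mutant 3. The share of all tested genes without overlap was 2.64%, with 1.67% lower in mutants. Pmp22 stood at 71.9, 71.4 and 72.8 RPM in the controls and at 57.2, 62.7 and 59.55 RPM in the mutants. Among the members, Igf1 had the highest r with Pappa2, 0.84, at rank 112 of the tested genes. Igfbp3 followed at 0.69, and Pappa stood at 0.28. These values share the 6 libraries and the genotype split by which Pappa2 was picked.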

How the data were processed

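The authors deposited 1 table of log2 values for 25899 gene symbols in 6 libraries, named as normalized RPKM. TopHat2 and mm10 are named in the submitters' processing notes; the counting program and annotation are not given in the sources used here. As powers of 2, 100% of the values below 5000 reads were whole multiples (within 0.05 reads) of a step per column shared by all genes, so length had not been divided out. Genes without reads sat at 0.9 of 1 read and were set to 0. Values were treated as RPM, a denominator inferred from the step. Genes averaging 1 RPM or more entered a limma fit (version 3.58.1, R 4.3.3) of log2(RPM + 1) values (lmFit, eBayes with trend, two-sided, Benjamini-Hochberg over all 14444 genes), mutant minus control, all 6 libraries, no covariate. Litter was tested as a term beside genotype, and their interaction in a further fit. The steps were tested on simulated data. The detection floor of 3 reads allows for counting error alone, because PCR copies were not marked by molecular identifiers.

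The members and lists were chosen with earlier results of these data known. Named genes are the members, Bmpr1a, Gli1, listed pathway genes with an unadjusted genotype p under 0.05 (none) or a role next to the members, and the 5 genes most like Pappa2; Col6a3, Grb14 and the single marker genes fall outside this rule or were chosen after their values were seen. Alternatives covered the pseudocount, filter, scaling, variance trend, voom on recovered reads, blocks, litter 1 alone, an enamel covariate and leaving out each library. Sequences came from RefSeq (promoters for 9 of 10 members) and GENCODE M21.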

Additional observations from a re-analysis of the deposited data

Results flagged for a closer look

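For 4 named genes the mutants of litter 1 lay below both controls of litter 1 while the mutant of litter 2 lay above its control. The genotype difference in litter 2 minus that in litter 1, on the log2 scale, was 1.38 for Pappa (SE 0.55, unadjusted p 0.0446), 0.99 for Igf2 (SE 0.45, unadjusted p 0.0721), 0.98 for Igfbp4 (SE 0.46, unadjusted p 0.0768) and 0.97 for Igfbp7 (SE 0.42, unadjusted p 0.0614). After Benjamini-Hochberg adjustment the limma p was 0.91 for all 4. Over all genes 5.06% had an unadjusted p under 0.05 in this test and 0 an adjusted one, and litter 2 has 1 library per genotype, so the spread comes from litter 1. The signs within litters were the same under median-of-ratios and upper-quartile scaling for all 4.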

How the results depend on the processing

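The genotype difference of Pappa2, which chose the gene, ran from -1.67 to -1.35 on the log2 scale over 17 alternatives, a description that gives no support. That of Igf1 ran from -0.68 to -0.27, where the smallest value came without control 3. The genotype differences of 9 named genes changed sign under some alternative. With the enamel covariate, added after seeing the data, they were 0.037 for Igf2, 0.039 for Igf1r, 0.034 for Insr, -0.059 for Igf2r and 0.0064 for Igfbp7. In litter 1 alone they were 0.036 for Igfbp5, -0.11 for Igfbp6, -0.20 for Stc2, 0.011 for Insr, -0.032 for Igf2r and -0.29 for Ghr. Leaving out 1 library at a time gave -0.31 to 0.040 for Igf2, -0.34 to 0.069 for Igf1r, -0.67 to 1.06 for Stc2, -0.17 to 0.15 for Insr, -0.10 to 0.15 for Igf2r, -0.47 to 0.44 for Ghr and -0.36 to 0.059 for Igfbp7. For litter it gave -1.22 to 0.17 for Pappa, -0.57 to 0.42 for Igf2, -0.10 to 0.42 for Igfbp3, -0.15 to 0.28 for Igfbp5 and -0.92 to 0.79 for Igfbp6. With the enamel covariate the litter difference was 0.24 for Igf2 and -0.16 for Igfbp3. The cause was not tested.

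The 152 genes with an unadjusted genotype p under 0.05 became 344 with no filter, 292 with a litter block, 319 in litter 1 alone, 449 with the enamel covariate and 68 to 325 without 1 library. The adjusted count of 0 became 0 to 1 without 1 library. For the pathway list, 0 became 2 in litter 1 alone, 1 with the enamel covariate and 0 to 2 without 1 library. For the members other than Pappa2, 0 became 1 with a litter block, 2 in litter 1 alone, 2 with the enamel covariate and 0 to 2 without 1 library. With the replicate block the counts were 524 for all genes, 3 for the pathway list and 2 for the members. Deviations from the group means correlated at -0.03, 0.75 and 0.50 for replicate numbers 1, 2 and 3, so the numbers were not taken to pair the libraries.

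Of the litter results, the adjusted count of 126 became 2 with no filter, 0 with median-of-ratios scaling, 1 with upper-quartile scaling, 0 with limma voom, 27 with the enamel covariate, 458 without genotype in the model and 0 to 371 without 1 library. The unadjusted count of 3026 became 1393 to 4248 without 1 library. The count of 3 members became 1 with the enamel covariate and 2 to 4 without 1 library, and the genes counted changed: with the covariate it was Igfbp4, without control 3 Igf1r and Igfbp4, and without mutant 3 Pappa and Igf1. Pappa and Stc1, below the stricter filter, have no value under it. Pappa and Igfbp6 rest on the fewest reads of the members, 54 and 79 in their lowest libraries. Without 1 library of litter 2, that litter is a lone library assumed to vary like the rest.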
